A study of Nasonia vitripennis and Nasonia giraulti with 12 samples.

Results

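The species by sex interaction is the difference between the sex effects of a pair of parasitoid wasps. It is the male over female difference in Nasonia giraulti minus the male over female difference in Nasonia vitripennis, on a log2 scale. It shows in which genes sex bias differed between the species. A gain of bias in N. giraulti cannot be told from a loss in N. vitripennis, or the reverse. All 12 libraries of the series entered the interaction, 3 from each of 4 groups: N. giraulti males, N. giraulti females, N. vitripennis males and N. vitripennis females. Adult wasps were taken 24 h after eclosion, the emergence from the pupal case, and RNA was extracted from whole bodies in pools of 10 animals. N. giraulti was strain R16A and N. vitripennis strain AsymCX, a single strain each, so that species and strain cannot be told apart. The labels describe the 3 pools of a group as independent batches. The files held estimated read counts for 24337 genes, of which 16536 passed a filter on low counts and were tested.

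Nasonia wasps are haplodiploid. Males develop from unfertilised eggs and carry a single chromosome set, and females develop from fertilised eggs and carry a paired one, so the sexes differ in dose at every locus rather than at a sex chromosome. Sex is relayed by sex-specific splicing of transformer and doublesex, and downstream genes come to have more RNA in one sex, which is called sex bias. Much of the sex-biased RNA of adult insects comes from the gonads and accessory glands. The species also differ in dimorphism outside the gonads: N. vitripennis males have short wings and do not fly, and N. giraulti males have larger wings. In whole bodies, fewer cells of a type and less RNA per cell cannot be told apart. None of the gene identifiers matched the name table at hand, so what a gene encodes, and whether markers of sex or tissue behave as labelled, was not looked up. Identifiers are given for 1 gene in each of 10 classes of changed bias, which is at most 2 per direction for bias in a single species, for a change in size and for opposite biases, and for 1 abundant gene per direction.

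Total counts ran from 23763596 to 51374887 per library. The library numbered 1 was the deepest in every group, with 39045479 to 51374887, against 23763596 to 34946172 for numbers 2 and 3. Depth and a replicate number of 1 therefore cannot be told apart. The libraries numbered 1 stood apart from those numbered 2 and 3 in every group. Between libraries of a group, the root mean square difference of log2 CPM (counts scaled to library size, with trimmed-mean factors) over the tested genes was 0.69 to 1.02 in the 8 pairs with a library numbered 1 and 0.48 to 0.69 in the 4 pairs of numbers 2 and 3. Numbers also paired libraries across groups, so counts of calls are given below with the replicate number as a block where these differ by over 1.5 times, and without the libraries numbered 1.

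The sex effect differed between the species in 1161 genes, 7.02% of those tested (quasi-likelihood test of edgeR, n = 3 per group, p-values adjusted by Benjamini-Hochberg with a threshold of 0.05). A shift toward males in N. giraulti was found in 710 genes (4.29% of those tested), and a shift toward females in 451 (2.73%). At an unadjusted p under 0.05 there were 3223 genes. Shifts toward males had a median of 2.23 log2 units, with quartiles of 1.46 and 3.56, and 200 of them were at least 10-fold. Shifts toward females had a median size of 2.98 log2 units, with quartiles of 2.04 and 4.27, and 189 were at least 10-fold. The smallest called shift was 0.72 log2 units toward males and 0.83 toward females, so this test found few differences under 2-fold: 43 toward males and 3 toward females. A replicate block gave 1837 genes shifted toward males and 950 toward females. In the libraries numbered 2 and 3 alone there were 905 and 524. Without the libraries numbered 2 there were 106 and 79, and without those numbered 3 there were 142 and 104. Leaving out a single library lowered the 710 to 470 (N. giraulti female 3), 464 (N. vitripennis male 2) or 441 (N. vitripennis male 3). The excess toward males depended on the scaling: trimmed-mean scaling put 61.2% of the called genes on that side, upper-quartile scaling 46.2% and library size alone 34.9%. Over all tested genes the median interaction was 0.12 log2 units under the first of these, -0.10 under upper quartiles and -0.28 under library size. With the libraries rescaled so that this median was 0, 569 genes were shifted toward males and 504 toward females.

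**Figure D1:**
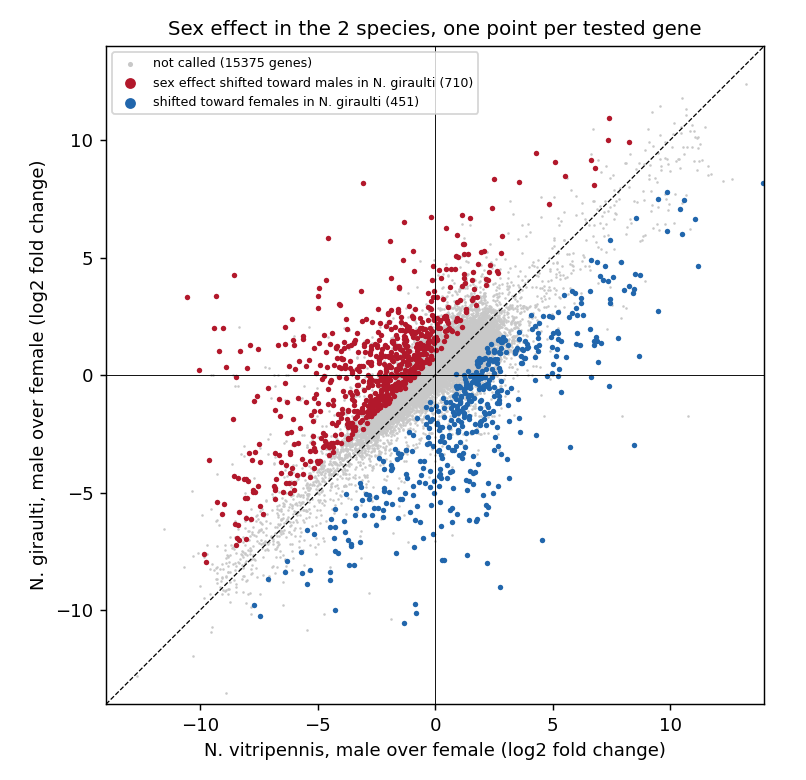
Each point is a tested gene, placed by the male over female log2 fold change in N. giraulti (vertical axis) and in N. vitripennis (horizontal axis), and the dashed line marks equal sex effects. The 710 genes shifted toward males in N. giraulti (red) lie above the line and the 451 shifted toward females (blue) below it, and they reach across the zero lines on both sides.

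A gene called for sex in a single species was usually not shown to differ between them. In N. giraulti 56.9% of the tested genes were called for sex, 30.0% higher in males and 26.9% higher in females. In N. vitripennis it was 65.0%, with 32.6% higher in males and 32.4% higher in females. Called in N. giraulti only were 1506 genes, of which 207 (13.7%) passed the interaction test, and called in N. vitripennis only were 2850, of which 324 (11.4%) passed it. Among genes higher in males in both species, 148 of 3732 (3.97%) passed, and among those higher in females in both, 305 of 3985 (7.65%). The 1161 genes thus divided into 207 with a bias called in N. giraulti only, 324 with a bias called in N. vitripennis only, 131 biased alike in both species with a larger bias in N. giraulti, 322 biased alike with a smaller bias in N. giraulti, and 177 with opposite biases. These counts describe the classes and carry no test of their own. With the replicate block they were 380, 652, 303, 1146 and 305, so the class with a smaller bias in N. giraulti grew most. In the libraries numbered 2 and 3 alone they were 263, 360, 159, 439 and 208. Single libraries moved some classes by over 1.5 times. The class with a smaller bias in N. giraulti held 181 genes without N. giraulti male 2, 208 without N. giraulti male 3, 197 without N. giraulti female 2, 172 without N. giraulti female 3, 206 without N. vitripennis male 2 and 169 without N. vitripennis male 3. The class with a larger bias held 83 without N. giraulti female 2 and 86 without N. vitripennis male 3. Bias in N. vitripennis only fell to 209 genes without N. vitripennis male 3, and bias in N. giraulti only to 135 without N. giraulti female 3.

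**Figure D2:**
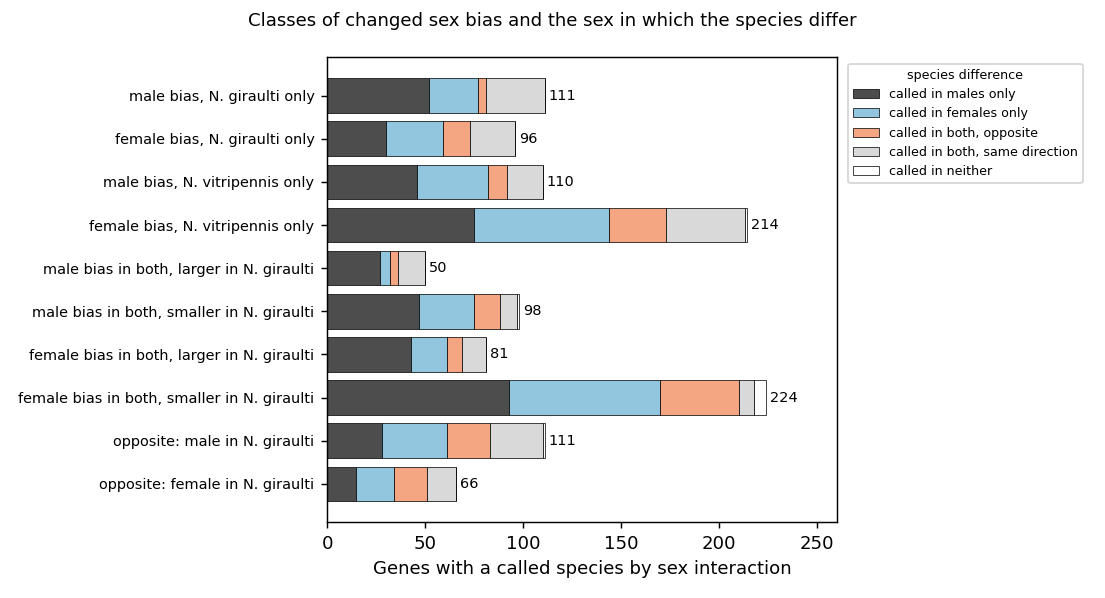
Bars give the number of interaction genes in each of 10 classes of changed sex bias, divided by the sex in which N. giraulti and N. vitripennis themselves differed. Female bias that was smaller in N. giraulti (224 genes) and female bias called in N. vitripennis only (214 genes) are the longest bars.

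Male bias was called in N. giraulti only in 111 interaction genes, with a median male over female log2 fold change of 2.00 in N. giraulti and -0.17 in N. vitripennis. The replicate block gave 226 such genes, and the libraries numbered 2 and 3 alone gave 158. Without a single library there were 72 (N. giraulti male 1), 73 (N. giraulti male 2), 70 (N. giraulti female 2) or 61 (N. giraulti female 3). With library size alone there were 62, against 156 with female bias in N. giraulti only. Which of these classes was larger thus turned with the scaling, and also with the libraries. There were 61 against 74 without N. giraulti female 3, and 72 against 96 without N. giraulti male 1. Without the libraries numbered 2 there were 7 against 30, and without those numbered 3 there were 14 against 31. The order was also reversed without N. giraulti male 3 (75 against 79), female 1 (77 against 80) or female 2 (70 against 73). It was reversed too without N. vitripennis male 2 (82 against 85), with DESeq2 size factors (96 against 99) and with the median interaction set to 0 (90 against 102). Upper-quartile scaling (99 against 95) kept the order. So did leaving out N. giraulti male 2 (73 against 67) or any other single N. vitripennis library, such as female 1 (121 against 100). Of the 111, 99 differed less than 2-fold between the sexes of N. vitripennis. The example named for this class, by the smallest interaction p among genes at 1 CPM or more in every group, was Nasvi2EG013168. It stood at 240.3, 147.5 and 167.9 CPM in N. giraulti males, against 16.9, 15.6 and 22.3 CPM in N. giraulti females, and at 14.1, 15.1 and 21.8 CPM in N. vitripennis males, against 12.3, 14.0 and 22.2 CPM in N. vitripennis females. The N. giraulti males lay above the other 9 libraries, and the remaining groups overlapped. Its male over female log2 fold change was 3.34 (SE 0.30) in N. giraulti and 0.07 (SE 0.28) in N. vitripennis, an interaction of 3.27 (SE 0.40, edgeR adjusted p = 0.000307).

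Female bias was called in N. giraulti only in 96 genes, with medians of -3.22 log2 units in N. giraulti and 0.29 in N. vitripennis. The block gave 154, and the libraries numbered 2 and 3 alone gave 105. Of the 96, 82 differed less than 2-fold between the sexes of N. vitripennis. The 96 were mostly low: only 22 of them reached a mean of 1 CPM in every group, and in 22 a group had 3 reads or fewer over its libraries. Nasvi2EG021405 stood at 21.5, 19.1 and 18.6 CPM in N. giraulti males, against 84.5, 81.5 and 112.5 CPM in N. giraulti females. In N. vitripennis it stood at 35.1, 25.5 and 34.0 CPM in males, against 33.4, 34.1 and 44.4 CPM in females. The N. giraulti females were thus the highest group and the N. giraulti males the lowest, with both sexes of N. vitripennis between them and overlapping. The interaction was -1.99 (SE 0.29, edgeR adjusted p = 0.00112), and of 26 alternatives it missed the threshold in 1, without the libraries numbered 2 (adjusted p = 0.0626, range over the alternatives 2.3e-09 to 0.0626).

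Male bias was called in N. vitripennis only in 110 genes, with medians of -0.14 in N. giraulti and 2.32 in N. vitripennis. The block gave 226 and library size alone 235, and the libraries numbered 2 and 3 alone gave 119. Without N. vitripennis male 3 there were 69, and without N. vitripennis female 2 there were 71. Of the 110, 89 differed less than 2-fold between the sexes of N. giraulti. Nasvi2EG012231 stood at 130.3, 165.2 and 160.2 CPM in N. giraulti males, against 97.2, 110.0 and 116.6 CPM in N. giraulti females, which did not overlap. In N. vitripennis it stood at 325.3, 305.4 and 412.3 CPM in males, against 16.4, 17.2 and 48.5 CPM in females, so that the males and females of N. giraulti lay between those of N. vitripennis. The sex effect was 0.49 (SE 0.34) in N. giraulti and 3.67 (SE 0.38) in N. vitripennis, with an interaction of -3.18 (SE 0.49, edgeR adjusted p = 0.00161). It missed the threshold without the libraries numbered 2 (adjusted p = 0.069, range over the alternatives 2.57e-08 to 0.069).

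Female bias called in N. vitripennis only was the most frequent of these 4 classes, with 214 genes and medians of 0.25 in N. giraulti and -2.31 in N. vitripennis. It stayed so with the replicate block (426 genes) and in the libraries numbered 2 and 3 alone (241), and held 140 without N. vitripennis male 3. With upper-quartile scaling it held 128 genes, against 160 with male bias in N. vitripennis only, and with library size alone 147 against 235. Of the 214, 178 differed less than 2-fold between the sexes of N. giraulti. Nasvi2EG017072 stood at 552, 478.5 and 328 CPM in N. giraulti males, against 309.9, 488.2 and 418.6 CPM in N. giraulti females, which overlapped. It stood at 12.9, 9.55 and 15.5 CPM in N. vitripennis males, against 117.4, 109.9 and 126.4 CPM in N. vitripennis females. Both sexes were higher in N. giraulti, by 5.16 log2 units (SE 0.29) in males and 1.78 (SE 0.25) in females. The interaction was 3.38 (SE 0.35, edgeR adjusted p = 0.000103).

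In 453 interaction genes both species had the same direction of bias and the size differed. Female bias was smaller in N. giraulti in 224 of them and larger in 81, and male bias was smaller in 98 and larger in 50. With the block these counts were 862 and 172 for female bias and 284 and 131 for male bias. In the libraries numbered 2 and 3 alone they were 324 and 99 for female bias and 115 and 60 for male bias. Without the libraries numbered 2 they were 12 and 14 for female bias and 8 and 5 for male bias, so smaller female bias no longer outnumbered larger. Without those numbered 3 they were 30 and 22 for female bias and 13 and 6 for male bias. Leaving out a single library gave 112 to 254 genes with a smaller and 56 to 89 with a larger female bias, and 50 to 98 with a smaller and 25 to 55 with a larger male bias. Smaller female bias moved by over 1.5 times without N. giraulti male 2 (126 genes), male 3 (146), female 2 (143) or female 3 (122), or without N. vitripennis male 2 (126), male 3 (112) or female 2 (148). Smaller male bias did so without N. giraulti male 2 (55), male 3 (62), female 2 (54) or female 3 (50), or without N. vitripennis male 3 (57). Larger male bias did so without N. giraulti male 1 (33), male 2 (32), female 2 (27) or female 3 (32), or without N. vitripennis male 2 (29) or male 3 (25). With upper-quartile scaling female bias was smaller in 131 genes and male bias in 170, so which sex gave more of the reduced genes turned with the scaling, and with library size alone female bias was smaller in 109 genes and larger in 121.

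Among genes with a smaller female bias, the median was -2.01 log2 units in N. giraulti and -3.84 in N. vitripennis. Nasvi2EG006450 stood at 32.4, 33.7 and 39.9 CPM in N. giraulti males, against 82.0, 81.7 and 76.6 CPM in N. giraulti females. In N. vitripennis it stood at 1.73, 3.42 and 3.07 CPM in males, against 97.4, 92.1 and 70.0 CPM in females. Females of the species overlapped and males did not. The sex effect was -1.18 (SE 0.23) in N. giraulti and -4.99 (SE 0.28) in N. vitripennis, an interaction of 3.81 (SE 0.34, edgeR adjusted p = 3.72e-05). The reverse arrangement appeared in Nasvi2EG018211, where female bias was larger in N. giraulti. This gene stood at 1.46, 1.76 and 1.26 CPM in N. giraulti males, against 97.8, 94.8 and 87.9 CPM in N. giraulti females, and at 10.2, 9.70 and 8.25 CPM in N. vitripennis males, against 127.6, 94.0 and 77.8 CPM in N. vitripennis females. Here too the females of the species overlapped and the males did not. The interaction was -2.56 (SE 0.30, edgeR adjusted p = 0.000247). Genes of this class had medians of -5.65 in N. giraulti and -2.58 in N. vitripennis.

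Where male bias was smaller in N. giraulti, the medians were 1.85 in N. giraulti and 5.19 in N. vitripennis. Nasvi2EG019557 stood at 2.51, 3.28 and 4.06 CPM in N. giraulti males, against 1.24, 0.963 and 1.34 CPM in N. giraulti females, and at 171.9, 256.0 and 228.2 CPM in N. vitripennis males, against 1.5, 1.93 and 2.12 CPM in N. vitripennis females. A single group, the N. vitripennis males, was high, and the N. giraulti males lay only slightly above both female groups. Its male over female log2 fold change was 1.47 (SE 0.25) in N. giraulti and 6.89 (SE 0.29) in N. vitripennis, and the interaction was -5.43 (SE 0.36, edgeR adjusted p = 6.68e-06). Where male bias was larger in N. giraulti, the medians were 4.36 in N. giraulti and 1.82 in N. vitripennis. Nasvi2EG007400 stood at 721.3, 610.2 and 622.2 CPM in N. giraulti males, against 11.1, 10.3 and 19.9 CPM in N. giraulti females, and at 142.7, 70.7 and 83.4 CPM in N. vitripennis males, against 38.4, 38.0 and 50.4 CPM in N. vitripennis females. None of its 4 groups overlapped, and N. giraulti was higher in males and lower in females. The interaction was 4.34 (SE 0.43, edgeR adjusted p = 8.25e-05).

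Opposite biases were found in 111 interaction genes with male bias in N. giraulti and female bias in N. vitripennis, and in 66 with the reverse. The block gave 191 and 114, and the libraries numbered 2 and 3 alone 122 and 86. This balance also turned with the scaling, with 107 and 92 under upper quartiles, 93 and 79 with the median interaction set to 0, and 67 and 103 under library size alone. Nasvi2EG009500, which had the smallest interaction p of all tested genes, stood at 1559, 1552 and 1339 CPM in N. giraulti males, against 19.0, 15.1 and 14.7 CPM in N. giraulti females. In N. vitripennis it stood at 15.1, 21.0 and 20.2 CPM in males, against 47.3, 35.4 and 58.9 CPM in females. The sex effect was 6.51 (SE 0.28) in N. giraulti and -1.33 (SE 0.22) in N. vitripennis, an interaction of 7.84 (SE 0.34, edgeR adjusted p = 1.34e-07). The gene named for the reverse, Nasvi2EG015695, had an uncertain class. It stood at 56.8, 63.2 and 54.0 CPM in N. giraulti males, against 195.5, 210.2 and 196.6 CPM in N. giraulti females, and at 353.5, 293.7 and 325.2 CPM in N. vitripennis males, against 277.7, 229.4 and 239.8 CPM in N. vitripennis females. The male excess in N. vitripennis was 0.38 log2 units (SE 0.16) with an edgeR adjusted p of 0.0496, and the gene kept its class under 11 of 26 alternatives. Its interaction of -2.17 (SE 0.23, edgeR adjusted p = 0.000103) passed the threshold in all 26.

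**Figure D3:**
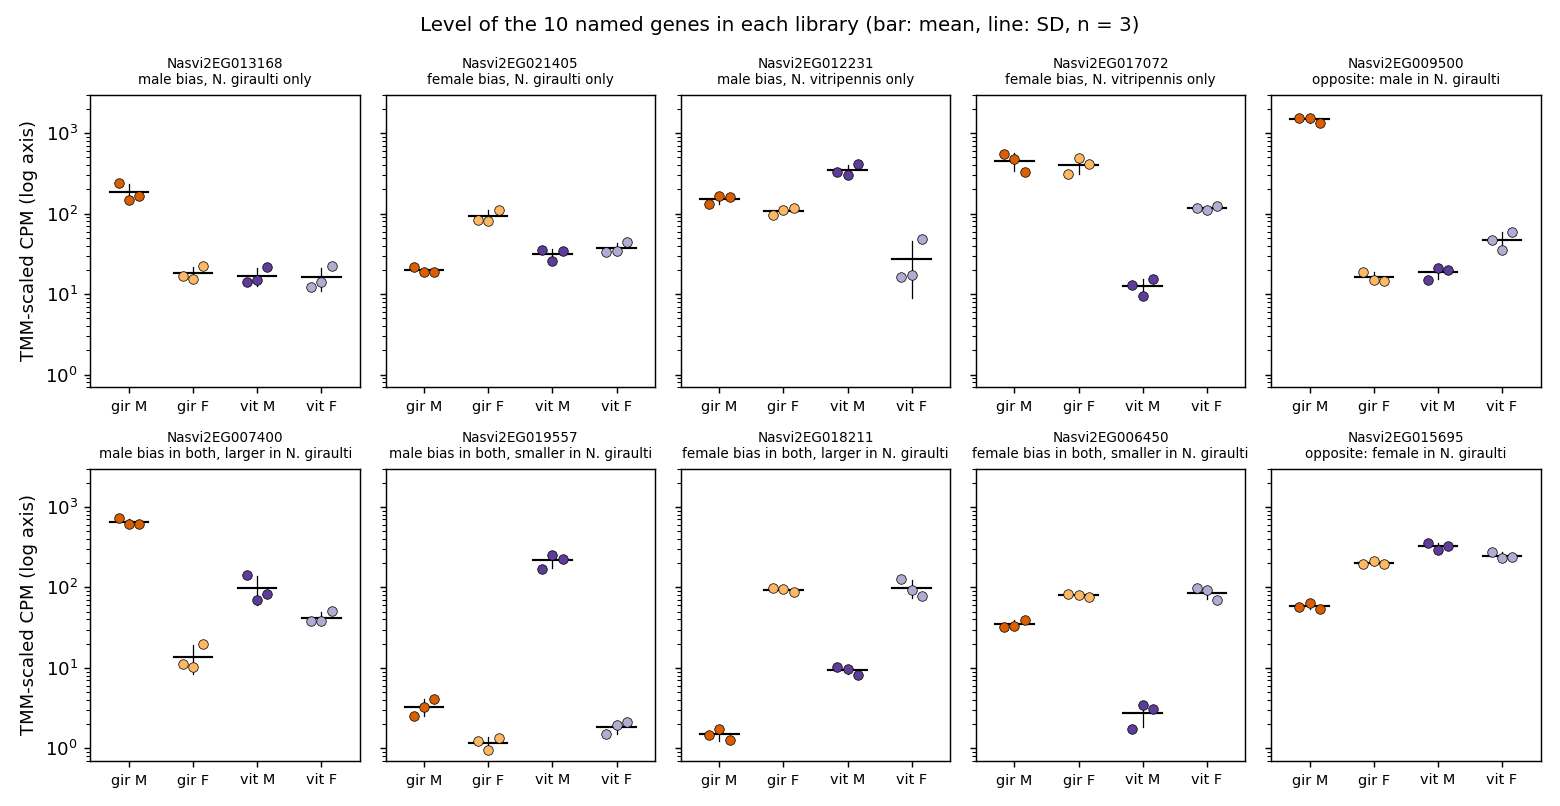
Trimmed-mean scaled CPM (log axis) of the 10 named genes in N. giraulti males (gir M), N. giraulti females (gir F), N. vitripennis males (vit M) and N. vitripennis females (vit F). Points are libraries numbered 1 to 3 from left to right, bars are means and lines are SDs (n = 3); Nasvi2EG006450, for example, has overlapping females in the 2 species and separate males.

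Smaller sex effects in N. giraulti also appeared over the genes biased alike in both species, a choice that treats the species evenly and does not use the interaction call. Of the 3732 genes higher in males in both, 65.0% had a smaller log2 fold change in N. giraulti, with a median size of 1.5 in N. giraulti and 1.75 in N. vitripennis. Of the 3985 genes higher in females in both, 74.9% had a smaller one, with medians of 1.71 in N. giraulti and 2.07 in N. vitripennis. Upper-quartile scaling gave 71.8% for male bias and 63.2% for female bias. Library size alone gave 79.4% for male bias and 48.9% for female bias, so the excess among female-biased genes was lost under that scaling. For both kinds together the share was 70.1%, and it ran from 61.2% to 76.8% over the 26 alternatives. These shares describe the tested genes and have no test, and genes are not independent replicates.

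The same contrast can be read across sexes, since it equals the species difference in males minus the species difference in females. Of the tested genes, 31.6% differed between males of the species, 15.0% with more RNA in N. giraulti and 16.6% with less. Between females 30.9% differed, 12.5% with more RNA in N. giraulti and 18.4% with less. Among the 1161 interaction genes the species difference was called in males only in 456 (39.3%), in females only in 339 (29.2%), in both sexes with opposite directions in 161 (13.9%) and in both with the same direction in 196 (16.9%). It was called in neither sex in 9. The share of all tested genes with each of these patterns was not counted. Since the interaction is computed from the same species differences, these counts describe its shape and are no separate evidence for it. Of the 710 genes shifted toward males, 275 were higher in N. giraulti males with no call in females, 209 were lower in N. giraulti females with no call in males, and 99 were both. Of the 451 shifted toward females, 181 were lower in N. giraulti males with no call in females, 130 were higher in N. giraulti females with no call in males, and 62 were both. The balance between the sexes turned with the replicate block, which gave 904 genes in males only, 976 in females only, 387 with opposite directions and 476 with the same direction. In the libraries numbered 2 and 3 alone there were 597, 386, 219 and 223.

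The sex in which the species differed was also counted by class. Where male bias was larger in N. giraulti, the species difference was called in males only in 27 of 50 genes and in females only in 5, with a median species difference (N. giraulti over N. vitripennis, log2) of 2.37 in males and -0.08 in females. Female bias that was larger in N. giraulti had its species difference called in males only in 43 of 81 genes and in females only in 18, with medians of -2.19 in males and 0.15 in females. Smaller female bias was more even, with 93 of 224 genes called in males only and 77 in females only, and medians of 0.87 in males and -0.65 in females. Genes with opposite biases had it called in males only in 43 of 177 and in females only in 52. Smaller male bias had it called in males only in 47 of 98 genes and in females only in 28. For bias in N. giraulti only, these counts were 52 and 25 with male bias and 30 and 29 with female bias. For bias in N. vitripennis only, they were 46 and 36 with male bias and 75 and 69 with female bias. No test of a difference between classes was run, and the same patterns were not counted over all tested genes. The counts by class were not recomputed under the alternatives.

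**Figure D4:**
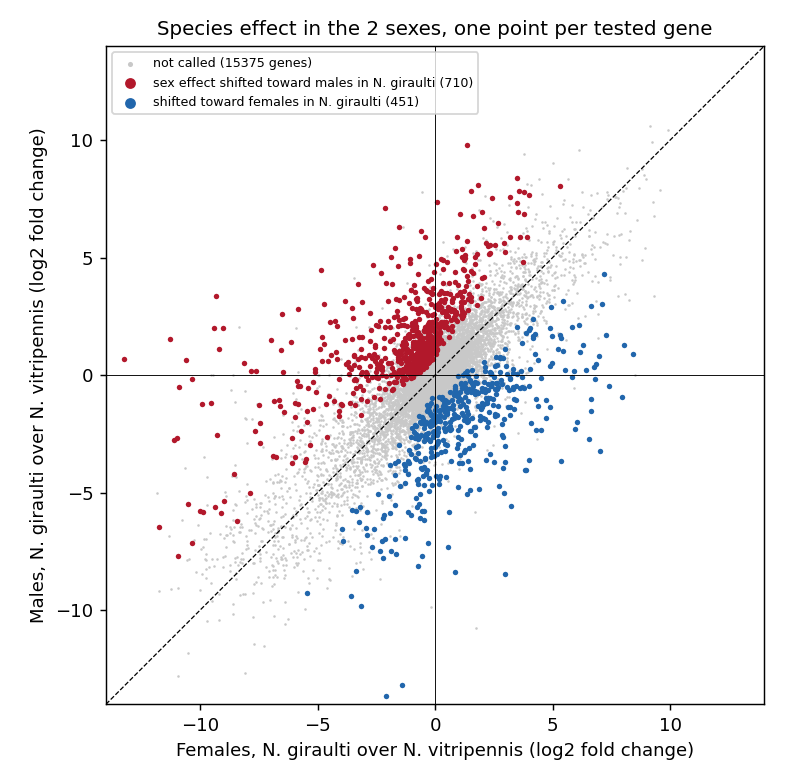
Each point is a tested gene, placed by the log2 species difference (N. giraulti over N. vitripennis) in males (vertical axis) and in females (horizontal axis), with equal species effects on the dashed line. Interaction genes spread along both axes, 456 of the 1161 with a species difference called in males only and 339 in females only.

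A single group often stood apart. In 351 of the 1161 interaction genes (30.2%) the N. vitripennis males were below all other 9 libraries, against 5.97% of all tested genes, and all 351 were shifted toward males in N. giraulti. N. vitripennis females were above the other 9 libraries in 335 (28.9%), against 13.0% of all tested genes. N. giraulti males were above the others in 187 (16.1%, against 10.9% of all genes) and below them in 156 (13.4%, against 6.48%), and N. giraulti females were above in 126 (10.9%, against 2.41%) and below in 101 (8.70%, against 5.79%). N. vitripennis males were above the others in 161 (13.9%, against 11.4%), and N. vitripennis females were below them in 138 (11.9%, against 9.10%). The share with N. vitripennis males lowest was 19.7% with upper-quartile scaling, against 4.67% of all tested genes, and 16.3% with library size alone, against 3.97%. In the same fits N. vitripennis females were highest in 18.6% (7.28% of all tested genes) and 16.8% (7.22%). Since the interaction is computed from these 4 groups, these shares describe its shape and are no separate evidence for it.

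**Figure D5:**
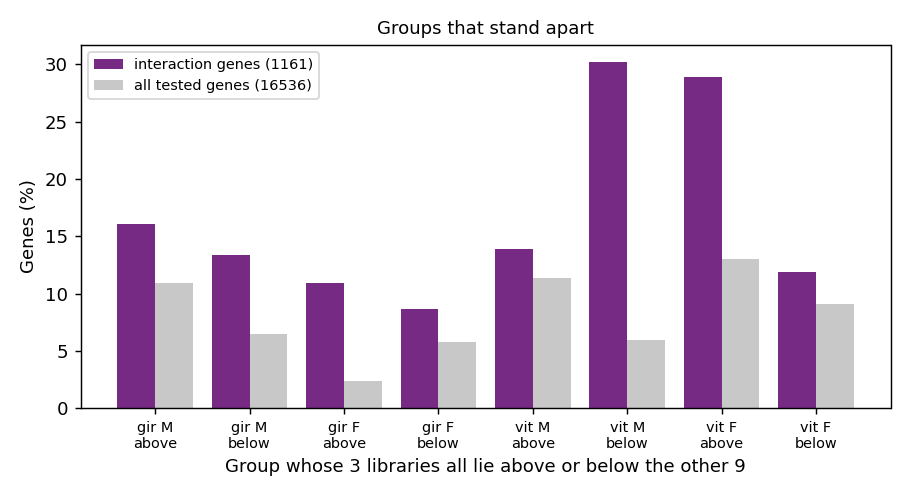
Bars give the percentage of genes in which the 3 libraries of a group all lay above or all lay below the other 9, for the 1161 interaction genes (purple) and all 16536 tested genes (grey). N. vitripennis males below the others (30.2%) and N. vitripennis females above them (28.9%) were the most frequent arrangements among interaction genes.

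Interaction genes were found at every expression level. Ranked by mean CPM over all libraries, 6.07% of the lowest quartile, 8.95% of quartile 2, 6.77% of quartile 3 and 6.29% of the highest were called. The directions differed with level: 120 genes toward males and 131 toward females in the lowest quartile, against 198 and 62 in the highest. Under upper quartiles there were 102 and 157 in the lowest and 109 and 88 in the highest, and under library size alone 90 and 179 in the lowest and 79 and 147 in the highest. The median size of a called shift was 3.93 log2 units in the lowest quartile and 1.45 in the highest, and the median standard error over all genes was 0.84 in the lowest and 0.33 in the highest. In 118 interaction genes (10.2%) a group had 3 reads or fewer over its libraries, against 7.20% of all tested genes, and the fitted size of these rests on the prior count. Of the 118, 47 were shifted toward males and 71 toward females. In 561 (48.3%) all 4 groups averaged 1 CPM or more, against 63.9% of all tested genes, and of these 410 were shifted toward males and 151 toward females. Among genes at that level upper quartiles gave 257 and 246, and library size alone 181 and 363.

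The share of all counts held by the interaction genes was taken for each direction, with 4.29% of the tested genes shifted toward males and 2.73% toward females. The 710 shifted toward males took 8.88% ± 0.250 of counts in N. giraulti males, against 4.45% ± 0.145 in their females, and 2.89% ± 0.109 in N. vitripennis males, against 5.23% ± 0.0933 in their females (SD, n = 3 each). The 451 shifted toward females took 0.864% ± 0.0446 in N. giraulti males, against 1.30% ± 0.0320 in their females, and 2.42% ± 0.0562 in N. vitripennis males, against 0.909% ± 0.0356 in their females. The libraries that chose the genes also gave these shares. Among genes shifted toward males, Nasvi2EG011134 was the most abundant in N. giraulti males, with 1.72% of all counts there, and was picked with its values in view. It stood at 17205, 22348 and 17496 CPM in N. giraulti males, against 909.9, 1594 and 1460 CPM in N. giraulti females, and at 6323, 6778 and 7372 CPM in N. vitripennis males, against 1083, 1579 and 1883 CPM in N. vitripennis females. Females of the species overlapped, and the interaction was 1.68 (SE 0.38, edgeR adjusted p = 0.0169). On the other side, Nasvi2EG007621 was chosen in the same way in N. vitripennis males. It stood at 86.4, 131.6 and 129.8 CPM in N. giraulti males, against 11.4, 14.2 and 11.5 CPM in N. giraulti females, and at 3705, 2633 and 2484 CPM in N. vitripennis males, against 17.3, 16.8 and 16.9 CPM in N. vitripennis females. It has fractional counts, taken to mark reads shared with another gene, so its level is uncertain. Its interaction was -4.21 (SE 0.32, edgeR adjusted p = 1.64e-05).

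Some interaction genes had consecutive identifiers. Of 641 genes shifted toward males with a tested neighbour in the numbering, 131 (20.4%) had a neighbour shifted the same way, against 7.25% of all 13866 tested genes with a neighbour. Toward females it was 81 of 403 (20.1%), against 4.41% of all. Reads appeared to be divided between some neighbouring rows: of 1738 pairs of consecutive rows that both hold fractional counts, 1014 (58.3%) summed to a whole number, within 0.01, in all 12 libraries. Without the genes with fractional counts, the share was 19.7% toward males, against 6.92% of all, and 17.8% toward females, against 4.31%. Neither the files nor the labels say whether the numbering follows position in the genome, and no test was run. In the order of the tested genes there were 106 runs of at least 2 interaction genes with the same direction, and 916 interaction genes lay in no such run. How many runs would arise by chance was not computed. The longest run, picked for its length, held 5 genes, all shifted toward females, among them Nasvi2EG018211. In these 5 genes the N. giraulti males averaged 0.276 to 4.11 CPM and the N. giraulti females 2.65 to 157 CPM, the N. vitripennis males 0.497 to 21.1 CPM and the N. vitripennis females 0.45 to 99.8 CPM. Their interactions lay between -3.84 and -2.56, and 3 of the 5 have fractional counts.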

How the data were processed

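The authors deposited estimated counts per gene, unscaled, in a single table. The submitters' processing notes name TopHat2 2.0, HTSeq, Cufflinks 2.1.0, edgeR, bedtools, Trimmomatic, CASAVA 1.8.2 and FastQC, with no role for any. No source used here gives the genome build or annotation, nor whether both species shared a reference. Whether either species lost reads in alignment was not tested. Over its libraries, a group had 3 reads or fewer in 3.31% of tested genes for N. giraulti males and 3.77% for N. giraulti females. The shares were 1.47% for N. vitripennis males and 2.3% for N. vitripennis females. Fractional values in 3372 genes (13.9%) were taken to mark reads shared with another gene, and counts were rounded.

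Genes were kept with filterByExpr (minimum count of 10) and scaled by trimmed means (TMM). All 12 libraries entered a quasi-likelihood fit in edgeR 4.0.16 (R 4.3.3) with a mean per group and p-values adjusted over 16536 genes (Benjamini-Hochberg, 0.05). Standard errors are the absolute log2 change over the square root of F. The fit was tested on simulated data in which every library was drawn independently, so that test does not cover libraries paired by replicate number. Libraries of a group differed beyond sampling noise (chi-square per degree of freedom 43.8 to 299). Deviations from group means correlated with r of 0.20 to 0.708 in the 18 pairs with the same replicate number and of -0.574 to 0.325 in the 36 others, so the numbers pair libraries, as found from the data and not the labels. A count of 3 equals 0.0595 to 0.126 scaled CPM.

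Named genes had, within each class, the smallest interaction p among genes with no fractional values and at least 1 CPM in each group. None of the 24337 identifiers matched the reference table (0 matched). Classes and rules were chosen with earlier results of these data known. Alternatives were other scalings, filters and tests (DESeq2 1.42.0, limma 3.58.1), the replicate block and left-out libraries.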

Additional observations from a re-analysis of the deposited data

Results flagged for a closer look

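By the interaction test (edgeR), 710 genes had a sex effect shifted toward males in N. giraulti and 451 one shifted toward females. In the genes named for a bias called in a single species, this test gave an edgeR adjusted p of 0.000307 for Nasvi2EG013168, 0.00112 for Nasvi2EG021405, 0.00161 for Nasvi2EG012231 and 0.000103 for Nasvi2EG017072. In those named for a change in size, the edgeR adjusted p was 8.25e-05 for Nasvi2EG007400, 6.68e-06 for Nasvi2EG019557, 0.000247 for Nasvi2EG018211 and 3.72e-05 for Nasvi2EG006450. In those named for opposite biases, it was 1.34e-07 for Nasvi2EG009500 and 0.000103 for Nasvi2EG015695. No gap test for a single outlying library was run per gene, since the groups hold 3 libraries.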

How the results depend on the processing

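Of the 10 named genes, none changed direction under the 26 alternatives, and 8 stayed past the threshold in all of them. Nasvi2EG021405 and Nasvi2EG012231 missed it without the libraries numbered 2 (edgeR adjusted p = 0.0626 and 0.069). The named genes were chosen for the smallest interaction p in this same fit, so their stability does not stand for the calls as a whole. Of the 1161 called genes, 184 were also called without the libraries numbered 2, and 244 without those numbered 3. The numbers below run in the order toward males, toward females, bias in N. giraulti only, bias in N. vitripennis only, larger, smaller and opposite, with 710, 451, 207, 324, 131, 322 and 177 genes in the fit as reported. The replicate block gave 1837, 950, 380, 652, 303, 1146 and 305, and ended no call of a named gene. Library size alone moved the first pair by over 1.5 times, to 414 and 773. A test against a 2-fold interaction calls fewer genes by construction, and gave 264, 199, 77, 103, 51 and 93 for the first 6. Without a single library the counts ran from 441 to 679, 314 to 437, 135 to 221, 209 to 304, 83 to 135, 169 to 352 and 135 to 178. Genes shifted toward males fell to 470 without N. giraulti female 3, to 464 without N. vitripennis male 2 and to 441 without N. vitripennis male 3. The smaller class fell to 181 and 208 without N. giraulti male 2 or 3, to 197 and 172 without N. giraulti female 2 or 3, and to 206 and 169 without N. vitripennis male 2 or 3. The class with a bias in N. giraulti only fell to 135 without N. giraulti female 3, that in N. vitripennis only to 209 without N. vitripennis male 3, and the larger class to 83 without N. giraulti female 2 and 86 without N. vitripennis male 3. With all 4 libraries numbered 2 left out the counts were 106, 79, 37, 65, 19, 20 and 44. With those numbered 3 left out they were 142, 104, 45, 73, 28, 43 and 57, and with those numbered 1 left out 905, 524, 263, 360, 159, 439 and 208. The cause was not tested.

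Of the interaction genes, the species difference was called in males only in 456, in females only in 339, in both with opposite directions in 161 and in both with the same direction in 196. The block gave 904, 976, 387 and 476. The test against 2-fold gave 142, 113 and 81 for males only, females only and the same direction. Leaving out the libraries numbered 2 gave 73, 57, 38 and 17, and leaving out those numbered 3 gave 99, 73, 45 and 29. Without a single library they ran from 304 to 469, 216 to 336, 112 to 164 and 115 to 170. The counts of this paragraph, the shares of genes biased alike, the shares of groups apart and the directions by expression level were recomputed under the alternatives by a choice made after seeing the data. Precision differed with level: the median standard error of the interaction was 0.84 log2 units in the lowest quartile of mean CPM and 0.33 in the highest.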
